A study of Mus musculus with 3 samples.

Results

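Lyve1, Folr2, Timd4, F13a1, Cbr2, Fcna, Ednrb, Pf4 and Stab1 are 9 genes that mark resident-type macrophages, and they were followed here through regenerating mouse muscle. They are 9 of the 32285 features in the data, found by their symbols. They were chosen by their UMI counts in macrophages, with earlier results of these data known, and Lyve1 leads them because its ratio of treated to untreated old muscle was the highest of the 9. That ratio is therefore given as a description and supports nothing further.

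Single-cell RNA sequencing of tibialis anterior muscle was performed 4 days after injury by intramuscular BaCl2, in C57/BL6J mice. The 3 groups were young PBS (mice of 3 to 4 months given PBS, the vehicle), old PBS (24 to 26 months, PBS) and old rMETRNL (24 to 26 months, recombinant METRNL protein injected into the muscle). Each group was 1 library pooled from several mice, and all 3 groups were injured. There were no uninjured muscles and no replicates, so that group and library cannot be told apart and groups could not be tested against each other. Intervals in parentheses are 95% intervals of counting error only. An age ratio divides old PBS by young PBS and a treatment ratio divides old rMETRNL by old PBS, so both share the old PBS library. Where 3 values follow one another they stand in the order young PBS, old PBS, old rMETRNL.

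Macrophages that take up residence in a tissue before injury differ from the monocytes that enter a wound from the blood. In many tissues the resident cells lie along vessels and nerves, clear debris and apoptotic cells, and carry scavenger and lectin receptors together with low Ly6C. Lyve1, a receptor for the matrix glycan hyaluronan, is also a marker of lymphatic endothelium, so the cells that hold its transcripts have to be separated before its level can be read. Among the other members, Folr2 is the folate receptor beta, Stab1 the scavenger receptor stabilin-1 and Timd4 a receptor for phosphatidylserine on dying cells. F13a1 encodes the catalytic subunit of coagulation factor XIII, Fcna the complement lectin ficolin-A, Ednrb the endothelin receptor type B, Pf4 the chemokine CXCL4 and Cbr2 a carbonyl reductase.

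The 250 bases before the start of 4 member genes are shown because they hold the short sequences bound by MAF and PU.1, a pair of transcription factors of the macrophage lineage. Capitals mark the MAF half-site (TGCTGA, or TCAGCA on the other strand) and the PU.1 core (GAGGAA, or TTCCTC). Sequences are from RefSeq, build GRCm38.p6, written 5′ to 3′ on the strand of the gene. Timd4 is chr11:46810549-46810798 on the plus strand, F13a1 is chr13:37050245-37050494 on the minus strand, Pf4 is chr5:90772185-90772434 on the plus strand, and Stab1 is chr14:31168642-31168891 on the minus strand. None of these 4 windows overlaps an annotated exon.
Timd4: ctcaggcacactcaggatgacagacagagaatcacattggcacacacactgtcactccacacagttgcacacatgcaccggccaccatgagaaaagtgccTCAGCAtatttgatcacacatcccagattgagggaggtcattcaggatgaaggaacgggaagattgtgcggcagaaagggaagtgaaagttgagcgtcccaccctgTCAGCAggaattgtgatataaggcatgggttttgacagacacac
F13a1: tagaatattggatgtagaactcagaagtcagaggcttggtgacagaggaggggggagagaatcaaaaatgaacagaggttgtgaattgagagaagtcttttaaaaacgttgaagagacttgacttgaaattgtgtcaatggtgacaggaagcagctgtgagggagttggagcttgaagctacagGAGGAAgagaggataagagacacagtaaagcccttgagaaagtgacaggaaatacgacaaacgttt
Pf4: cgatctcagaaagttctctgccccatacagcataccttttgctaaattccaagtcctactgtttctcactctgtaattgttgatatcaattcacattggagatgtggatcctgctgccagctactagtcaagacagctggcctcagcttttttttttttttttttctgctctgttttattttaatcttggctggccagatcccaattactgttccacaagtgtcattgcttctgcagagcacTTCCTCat
Stab1: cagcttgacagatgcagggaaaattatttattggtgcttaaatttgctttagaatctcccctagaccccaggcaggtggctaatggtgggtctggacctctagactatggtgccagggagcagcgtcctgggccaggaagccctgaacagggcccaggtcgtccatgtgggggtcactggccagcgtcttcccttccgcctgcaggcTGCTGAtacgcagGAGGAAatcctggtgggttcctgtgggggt

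Of the 9 genes, 8 had an entry in the promoter table, the exception being Lyve1. The MAF half-site was present in 5 of the 8 (Folr2, Timd4, Fcna, Ednrb and Stab1), against 15.8% of 27025 promoter windows of the same length. The PU.1 core was also present in 5 of the 8 (F13a1, Cbr2, Fcna, Pf4 and Stab1), against 23.1% of all windows. All 8 held a MAF half-site or a PU.1 core, while Fcna and Stab1 held both. The share of all windows with either or both was not counted, so nothing is read from this. The MEF2 motif and the E-box CACGTG, which reads the same on both strands, were in none of the 8, against 3.23% and 6.05% of all windows. These matches describe letters in a window and are not binding sites.

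The 3 libraries held 12168 to 14012 cell barcodes and 179295668 to 228966697 UMIs (unique molecular identifiers, counts of captured transcripts). After filters, 31782 cells remained, with median depths of 13729 to 15097 UMIs per cell. Of these, 19061 were macrophage/monocyte-like by their markers (6234, 6038 and 6789 by library), or 59.4% to 60.4% of each library. All 12 macrophage markers were present in each library. Libraries shared 58 to 80 barcodes pairwise, at most 0.657% of a library. Among markers of other cells, the sums of the erythroid list in macrophages were 281, 29.0 and 110 CPM, those of the mast cell list 36.2, 5.87 and 14.3 CPM, those of the B cell list 157, 93.7 and 121 CPM and those of the myocyte list 45.3, 108 and 55.3 CPM, and their part in the results below was not tested. Levels are in CPM, counts of a gene scaled to a common total of all UMIs of the cell class in that library.

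Most transcripts of the list came from macrophage/monocyte-like cells. These cells held between 94.3% and 98.1% of the UMIs of Folr2, F13a1, Cbr2, Fcna, Pf4 and Stab1 in every library. They held 86.9%, 92.5% and 91.7% of Lyve1 UMIs. Ednrb and Timd4 were the exceptions, with 63.6% to 76.6% and 22.6% to 38.9% of their UMIs in macrophages. The order of levels over the 8 classes with enough cells in each library is shown in the plot of levels by class.

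**Figure D1:**
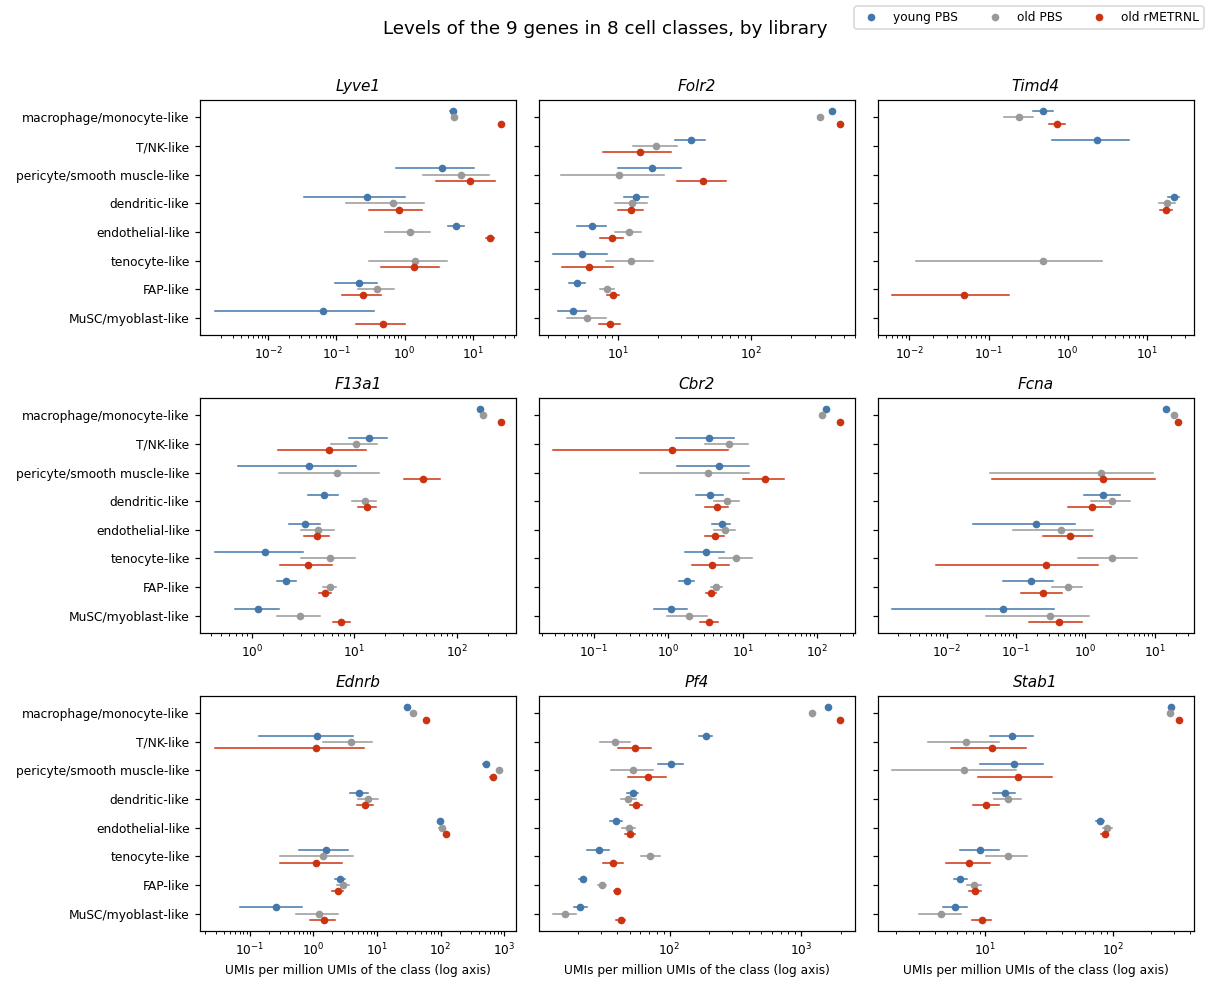
Level of each of the 9 genes in 8 cell classes (x axis, CPM, log axis). Points are the 3 libraries, 1 per group, lines are exact Poisson 95% intervals, and classes without a UMI have no point. Folr2, F13a1, Cbr2, Fcna, Pf4 and Stab1 were highest in macrophage/monocyte-like cells in each library, Ednrb in pericyte/smooth muscle-like cells and Timd4 in dendritic-like cells.

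For Folr2, F13a1, Cbr2, Fcna, Pf4 and Stab1, the macrophage level was the highest of the 8 classes and its range over libraries did not overlap that of the next class. The mean over libraries exceeded the next class by 17.1-fold for Pf4, 16.8-fold for Folr2, 16.1-fold for Cbr2, 10.8-fold for F13a1, 10.04-fold for Fcna and 3.49-fold for Stab1. Stab1 was second highest in endothelial-like cells, at 78.8, 90.04 and 86.3 CPM, a level that did not overlap the class after it. For Folr2, F13a1, Cbr2, Fcna and Pf4 the class ranked second overlapped the one after it. T/NK-like cells, which should lack these genes, held Pf4 at 38.6 to 188 CPM and Lyve1 at 0 UMIs in all 3 libraries.

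Ednrb followed another order. It was highest in pericyte/smooth muscle-like cells, at 509, 841 and 655 CPM, where endothelin receptors regulate vessel tone. Endothelial-like cells came next with 97.0, 103 and 121 CPM, and macrophage/monocyte-like cells followed with 29.4, 37.2 and 59.1 CPM. These 3 classes did not overlap one another. In pericyte/smooth muscle-like cells the treatment ratio of Ednrb was 0.779 (0.678 to 0.893), below 1, and in endothelial-like cells it was 1.17 (1.07 to 1.29).

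Timd4 was highest, among the classes, in dendritic-like cells. Dendritic-like cells had 21.8, 17.99 and 17.4 CPM, while macrophages had 0.490, 0.244 and 0.735 CPM. The dendritic-like range lay above that of every other class and exceeded the next by 24.7-fold in the mean. Within dendritic-like cells, Timd4 was present in cells with an Xcr1 or Clec9a UMI (markers of the type that cross-presents antigen) at 23.8, 27.5 and 21.7 CPM, against 20.9, 12.4 and 15.2 CPM in the remaining dendritic-like cells. It was present in cells with a Ccr7 or Ccl22 UMI (markers of migrating mature cells) at 34.7, 17.8 and 24.1 CPM against 13.3, 18.3 and 12.1 CPM in the rest, and in cells with a Cd209a UMI at 20.2, 18.8 and 15.03 CPM against 23.4, 17.3 and 19.7 CPM. A cell can meet several of these conditions, and neither side of any of them lacked Timd4. A small macrophage sub-cluster led by Cd209f, described below, reached 20.7, 19.03 and 54.05 CPM, with intervals that overlapped the dendritic-like ones in young PBS and old PBS. The age and treatment ratios of Timd4 in dendritic-like cells, 0.823 (0.622 to 1.08) and 0.969 (0.727 to 1.30), had intervals that included 1.

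Lyve1 in endothelial-like cells was concentrated in a few cells. Its level there was 5.70, 1.19 and 18.1 CPM, on 58, 8 and 209 UMIs, a treatment ratio of 15.3. Cells with UMIs of at least 2 of 5 lymphatic endothelial markers numbered 18, 6 and 12, and they held 86.2%, 12.5% and 91.9% of the endothelial Lyve1 UMIs. Lyve1 in them was at 65.0, 9.40 and 678 CPM, on 50, 1 and 192 UMIs. The remaining endothelial-like cells had 0.850, 1.05 and 1.51 CPM with overlapping intervals. In macrophages the same 5 lymphatic markers summed to 0.406 to 0.717 CPM, and 1 of the 5 was at 0 in old PBS. The macrophage level of Lyve1 overlapped that of endothelial-like cells over libraries, which in turn overlapped pericyte/smooth muscle-like cells at 3.58 to 9.04 CPM (3 to 5 UMIs). The last of these did not overlap the class ranked after it.

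Lyve1 in macrophage/monocyte-like cells stood at 5.07 CPM (497 UMIs), 5.40 CPM (531 UMIs) and 25.9 CPM (2888 UMIs). The first 2 libraries lay within counting error of each other, the age ratio being 1.06 (0.940 to 1.21), and old rMETRNL stood apart from both. The treatment ratio was 4.80 (4.37 to 5.28), which ranked 7 among the 14344 genes with at least 50 UMIs. The size of this ratio depended on how cells were counted. It was 7.57 with a filter of at least 1000 genes and under 5% mitochondrial UMIs per cell, and 3.01 when each cell was given equal weight. The age ratio was 0.773 and 1.62 under the same settings, on either side of 1.

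**Figure D2:**
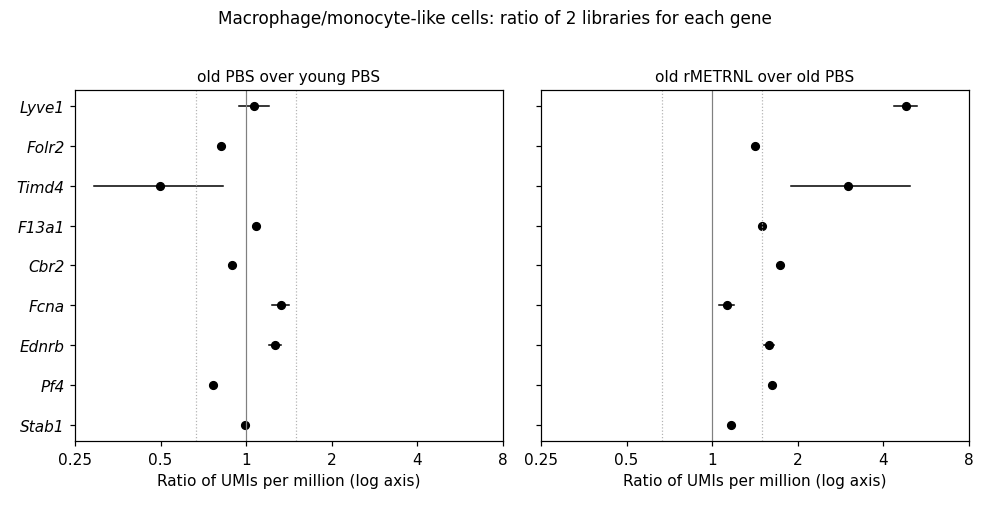
Ratio of CPM between 2 libraries for each gene in macrophage/monocyte-like cells (x axis, log scale), old PBS over young PBS at left and old rMETRNL over old PBS at right. Points are ratios with 95% counting intervals, the solid line marks 1 and the dotted lines mark 1.5-fold in either direction. All 9 genes lie above 1 at right, from 1.13 for Fcna to 4.80 for Lyve1, and on both sides of 1 at left.

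All 9 genes were higher in old rMETRNL than in old PBS macrophages, and 5 of them (Lyve1, Timd4, Cbr2, Pf4 and Ednrb) by over 1.5-fold. Over all 14344 genes tested, 5.75% were higher and 3.92% lower by over 1.5-fold in the treatment comparison, and 57.3% were above 1. The median log2 ratio of the 9 genes was 0.67, against 0.05 for all genes. Because the list was drawn up with this comparison known, nothing is read from these counts. The median without Lyve1 was 0.63. With age, by contrast, 0 of the 9 were higher and 1 (Timd4) was lower by over 1.5-fold, where 6.81% of all genes were higher and 6.69% lower, and the median log2 ratio was -0.01 against -0.0017 for all genes.

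Among the receptors for uptake, Folr2 was at 404, 330.0 and 465 CPM. It was lowest in old PBS and highest in old rMETRNL (age ratio 0.817, 0.805 to 0.829, and treatment ratio 1.41, 1.39 to 1.43). Stab1, the scavenger receptor, was at 283, 280 and 326 CPM. Its age ratio of 0.993 (0.976 to 1.01) included 1 and its treatment ratio was 1.16 (1.15 to 1.18). Timd4 rested on 48, 24 and 82 UMIs, with ratios of 0.498 (0.292 to 0.829) for age and 3.02 (1.89 to 4.97) for treatment. These UMIs lay in 31, 16 and 32 cells, and the intervals treat UMIs of the same cell as independent. After the thinning described below, the share of macrophages with a Timd4 UMI had ratios whose intervals included 1. They were 0.552 (0.0897 to 2.62) for age and 2.88 (0.742 to 16.1) for treatment. The treatment ratio of Timd4 in CPM was 5.28 without the macrophage sub-cluster richest in Lyve1 and 1.84 (0.393 to 11.4) without the 4 richest sub-clusters, described below. Its age ratio was 0.240 without the richest sub-cluster.

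Among the secreted products, Pf4 was at 1598, 1221 and 1989 CPM, and the ratios were 0.764 (0.758 to 0.770) for age and 1.63 (1.62 to 1.64) for treatment. Pf4 is also the main chemokine of platelets. Of 5 other platelet and megakaryocyte markers, 0 to 2 were at 0 in a library, and their sum was 2.42, 1.70 and 3.08 CPM in macrophages. In each library 1 macrophage-like cell carried at least 2 of them, and that cell held 186, 101 and 165 Pf4 UMIs out of 156734, 120162 and 221746. F13a1 was at 167, 181 and 272 CPM. Its treatment ratio of 1.498 (1.47 to 1.53) lay just under 1.5-fold, and was 1.66 (1.63 to 1.699) with the stricter cell filter and 1.26 when each cell was given equal weight. Its age ratio of 1.09 (1.06 to 1.11) was 0.933 with the stricter filter. Fcna was at 14.5, 19.2 and 21.6 CPM, giving 1.33 (1.24 to 1.42) for age and 1.13 (1.06 to 1.196) for treatment.

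The enzyme Cbr2 was at 131, 117 and 203 CPM. Its treatment ratio was 1.73 (1.69 to 1.77), and its age ratio of 0.892 (0.870 to 0.915) was 1.0004 when each cell was given equal weight. Ednrb was at 29.4, 37.2 and 59.1 CPM and was the only member whose age and treatment ratios both exceeded 1.2, at 1.26 (1.20 to 1.33) and 1.59 (1.53 to 1.66). By that weighting the treatment ratio of Ednrb was 1.23, under 1.5-fold, and its age ratio was 1.66. In CPM, Folr2, Pf4, Cbr2 and Timd4 were thus lower in old PBS than in young PBS macrophages and above the young level in old rMETRNL. Old rMETRNL over young PBS was 1.15 (1.14 to 1.17), 1.244 (1.236 to 1.252), 1.55 (1.51 to 1.58) and 1.502 (1.04 to 2.19). For Timd4 this rested on few cells, of which the highest held 3, 4 and 10 UMIs. The share of macrophages with a Timd4 UMI in old rMETRNL over young PBS was 0.948. After the thinning described below it was 1.59 (0.516 to 5.44), so the share of Timd4 cells was not shown to exceed the young one. F13a1, Fcna and Ednrb had ratios above 1 in both comparisons, apart from F13a1 with age under the stricter filter and, without the 4 sub-clusters richest in Lyve1, F13a1 with age (0.919) and Fcna and Ednrb with treatment (given below). Against young PBS, 4 of the 9 genes (Lyve1, Ednrb, F13a1 and Cbr2) were higher in old rMETRNL by over 1.5-fold on the log2 scale with 0.5 counts added, and 0 lower, where 4.62% of all genes were higher and 2.15% lower.

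The share of macrophages with a Lyve1 UMI was small. A Lyve1 UMI was seen in 119 of 6234 cells (1.91%), 160 of 6038 (2.65%) and 453 of 6789 (6.67%). With every cell thinned to 2000 UMIs, leaving out 112, 213 and 168 shallower cells, the expected shares were 0.605% (0.426 to 0.833), 1.003% (0.763 to 1.29) and 2.60% (2.23 to 3.02). Fibro/adipogenic progenitor-like cells, which should lack the gene, had thinned shares of 0.0395%, 0.0549% and 0.0498%, at median depths of 21697.5 to 25677.5 UMIs against 14090 to 14678.5 UMIs in macrophages. The intervals of young PBS and old PBS overlapped, and that of old rMETRNL lay above both. The ratio of thinned shares was 2.60 (1.92 to 3.56) for treatment and 1.66 (1.08 to 2.57) for age. The age interval included 1 with the stricter cell filter, at 1.24 (0.692 to 2.22), and for cells with at least 2 UMIs, at 1.88 (0.836 to 4.47).

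The Lyve1-bearing cells also held more Lyve1 each. A cell with any Lyve1 UMI held 4.18, 3.32 and 6.38 UMIs on average, and the highest cell held 49, 34 and 125 UMIs. Cells with at least 5 Lyve1 UMIs numbered 28, 31 and 150. The 1% of macrophages with the most Lyve1 (63, 61 and 68 cells) held 88.3%, 77.0% and 60.4% of its UMIs. The 1% of macrophages with the most Stab1 held 8.06%, 7.26% and 7.96% of Stab1 UMIs, and the 1% with the most Folr2 held 8.69%, 9.68% and 7.47% of Folr2 UMIs.

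Macrophages of old rMETRNL carried more of the 9 genes per cell. After 1 draw of the thinning to 2000 UMIs, a macrophage carried UMIs of 1.71, 1.80 and 2.09 of the 9 genes on average. At least 5 of the 9 were seen in 4.80%, 5.70% and 10.98% of cells, and none in 25.8%, 23.4% and 20.96%. All 9 genes were higher in old rMETRNL than in old PBS, and the list was drawn up with that comparison known. Nothing is therefore read from these shares, and co-occurrence beyond the shares of single genes was not tested.

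Macrophages were divided into 12 sub-clusters without use of the 9 genes or their companions, described by their leading genes. The highest Lyve1 level was in the smallest of them, 169 cells led by Cd209f, Pla2g2d, Cd209g, Cd209d and Vsig4, most of which encode lectins or receptors of resident macrophages. Lyve1 there was at 33.8, 58.2 and 169 CPM, on 31, 52 and 125 UMIs. A sub-cluster of 2876 cells led by Hbegf, Ccl7, Ednrb, Egr3 and Egr1 came next, at 33.6, 29.1 and 113 CPM, and it held 65.8%, 69.1% and 56.3% of macrophage Lyve1 UMIs. Cycling macrophages (1229 cells, led by Hist1h1b, Nusap1, Cenpf, Top2a and Hmmr) had 9.94, 5.65 and 50.6 CPM, and a sub-cluster of 1448 cells led by Txnip, Dlg4, Gm26917, Sesn1 and Lyl1 had 5.43, 8.004 and 51.5 CPM. Within each of these 4 sub-clusters old rMETRNL lay above both other libraries.

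**Figure D3:**
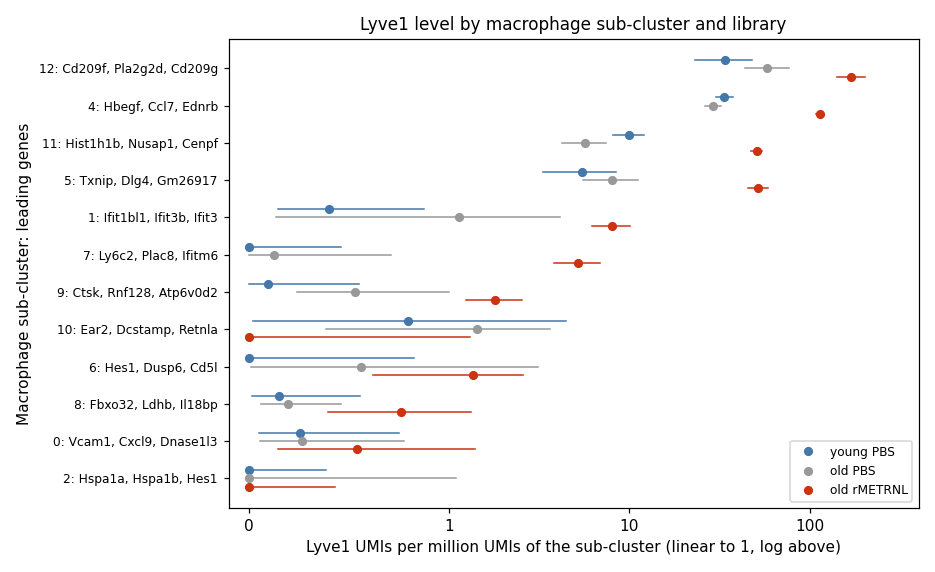
Lyve1 level in each of the 12 macrophage sub-clusters (y axis, number and leading genes) in CPM (x axis, linear to 1 and log above). Points are the 3 libraries with exact Poisson 95% intervals. In the 4 uppermost sub-clusters old rMETRNL lies above young PBS and old PBS, from 50.6 to 169 CPM.

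In these 4 sub-clusters, the treatment ratio of Lyve1 was 2.90 (2.08 to 4.09) in the Cd209f sub-cluster, 3.90 (3.48 to 4.38) in the Hbegf sub-cluster, 8.97 (6.78 to 12.1) in cycling cells and 6.43 (4.48 to 9.496) in the Txnip sub-cluster. The other 8 sub-clusters held few Lyve1 UMIs, 0 to 9 each in the old PBS library and 0 to 70 each in the treated one, and 1 of them had 4 and 0. The cells with Lyve1 made up 52.9% of the Cd209f sub-cluster in old rMETRNL against 30.8% in young PBS and 22.7% in old PBS, and 20.9% against 8.74% and 8.20% of the Hbegf sub-cluster. In the monocyte-like sub-cluster led by Ly6c2 and Plac8, by contrast, 43 of the 48 Lyve1 UMIs of old rMETRNL came from 1 cell. With the sub-cluster shares of old PBS kept and the levels of old rMETRNL put in, the treatment ratio of Lyve1 was 4.50, and with the levels kept and the shares put in it was 1.02.

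With age, the ratio of Lyve1 lay on both sides of 1 among sub-clusters. The age ratio was 1.72 (1.08 to 2.78) in the Cd209f sub-cluster, 0.866 (0.744 to 1.01) in the Hbegf sub-cluster and 0.568 (0.401 to 0.797) in cycling cells. In the Txnip sub-cluster it was 1.47 (0.824 to 2.70) and in a sub-cluster led by Ctsk and Rnf128 5.37 (0.744 to 235), on 1 and 9 UMIs, both with intervals that included 1. The ratio in the Cd209f sub-cluster rested on 31 and 52 UMIs. In the sub-cluster richest in Lyve1 it was 0.930 with the stricter filter (1456 cells) and 0.885 at clustering resolution 1.6 (906 cells).

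The other members shared the sub-cluster order of Lyve1 to differing degrees. The Cd209f sub-cluster was the highest for Folr2, Timd4, F13a1, Fcna, Ednrb and Stab1 in the mean over libraries. Timd4 was at 20.7, 19.03 and 54.05 CPM there, on 19, 17 and 40 UMIs, and had a mean of 1.09 CPM in the sub-cluster ranked next. Fcna was at 267, 176 and 397 CPM there against 37.2, 40.4 and 51.7 CPM in the Hbegf sub-cluster. F13a1 reached 1192, 936 and 1689 CPM in the Cd209f and 717, 755 and 988 CPM in the Hbegf sub-cluster. Cbr2 was shared by both, at 440, 326 and 650 CPM and at 482, 374 and 585 CPM. Pf4 was instead highest in cycling cells, at 1965 to 3014 CPM, and was spread over most sub-clusters.

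In the Cd209f sub-cluster the treatment ratios of the 9 genes ran from 1.22 (1.08 to 1.38) for Stab1 to 2.90 for Lyve1, each with an interval above 1. There Fcna was 2.26 (1.86 to 2.76), Cbr2 1.995 (1.72 to 2.32) and F13a1 1.81 (1.65 to 1.97). In the Hbegf sub-cluster Pf4 was at 1.95 (1.91 to 1.99), Folr2 at 1.59 (1.55 to 1.65), Cbr2 at 1.57 (1.51 to 1.62) and Ednrb at 1.57 (1.48 to 1.66). Outside the 4 sub-clusters rich in Lyve1, Fcna was lower in old rMETRNL than in old PBS, at 0.816 (0.742 to 0.896), and the ratio of Ednrb, 0.918 (0.838 to 1.006), had an interval that included 1. Pf4 was higher in old rMETRNL in all 12 sub-clusters, with ratios of 1.23 to 2.58, and lower in old PBS than in young PBS in all 12, with ratios of 0.388 to 0.985.

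Over the 36 combinations of sub-cluster and library, the levels of the 9 genes on a log2(CPM + 1) scale had pairwise Pearson correlations of 0.291 to 0.959, with a median of 0.746. The points share libraries and depth, so the values are a description. Folr2 and Pf4 were the closest pair, Lyve1 was closest to F13a1 at 0.936, and Timd4 and Pf4 were the farthest. Of 10753 genes, those most like Lyve1 outside the list were Etv1 (0.926), an ETS-family transcription factor, Dab2 (0.920), an adaptor for endocytosis, Mrc1 (0.915), the mannose receptor, Nid2 (0.913), a basement membrane protein, and Psd3 (0.911). Etv1 was at 3.84, 4.48 and 8.41 CPM in macrophages, and Nid2 at 1.89, 1.77 and 3.31 CPM. Dab2 was at 250, 239 and 310 CPM and Mrc1 at 333, 399 and 461 CPM.

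Cells with a Lyve1 UMI were set beside those without. After the thinning, 38, 64 and 163 macrophages had a Lyve1 UMI. Timd4 had 1, 3 and 3 UMIs in them, too few to read. In them F13a1 was higher by 10.05-fold (8.38 to 11.96), 8.21-fold (7.17 to 9.37) and 5.82-fold (5.30 to 6.38), and Ednrb by 12.4-fold (8.18 to 18.1), 8.90-fold (6.58 to 11.8) and 9.40-fold (7.87 to 11.2). Cbr2 was higher by 6.47-fold, 6.45-fold and 4.35-fold, Fcna by 6.44-fold, 6.72-fold and 7.58-fold, Folr2 by 2.73-fold, 2.48-fold and 2.84-fold, and Pf4 by 2.44-fold, 2.58-fold and 2.09-fold. Stab1 was higher by 1.48-fold (0.985 to 2.15) in young PBS, with an interval that included 1, and by 2.43-fold (1.93 to 3.03) and 3.06-fold (2.71 to 3.45) in the old libraries.

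**Figure D4:**
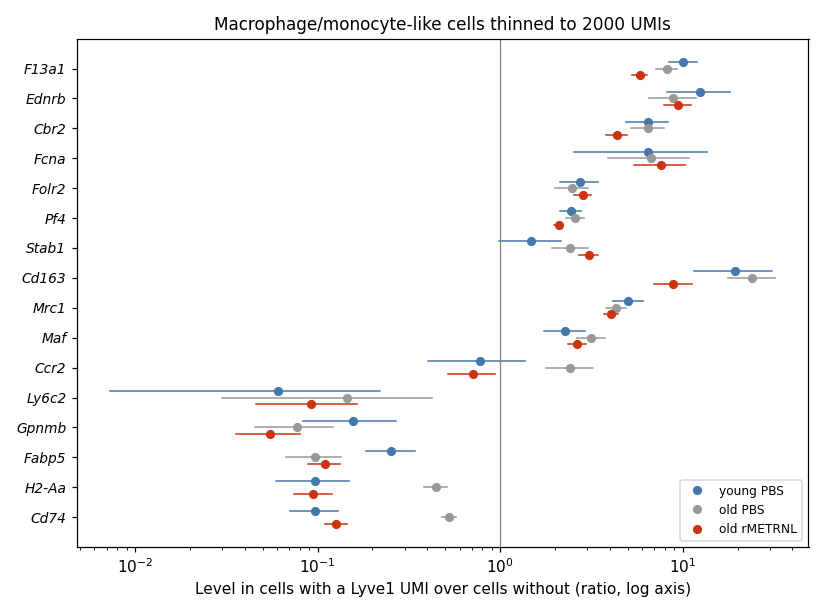
Level of each gene in macrophage/monocyte-like cells with a Lyve1 UMI over those without, after thinning to 2000 UMIs per cell (x axis, log scale). Points are the 3 libraries with 95% counting intervals, and the line marks 1. The 7 members drawn (Timd4 is left out) and the resident-type companions Cd163, Mrc1 and Maf lie above 1, and Ly6c2, the lipid-associated genes Gpnmb and Fabp5 and the MHC class II genes H2-Aa and Cd74 lie below 1 in each library, while Ccr2 is above 1 in old PBS at 2.42.

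Companion genes of resident macrophages went with Lyve1 in the same cells. Cd163, the receptor for haemoglobin bound to haptoglobin, was higher by 19.4-fold, 24.1-fold and 8.88-fold, Mrc1 by 5.05-fold, 4.33-fold and 4.06-fold, and Maf, the transcription factor, by 2.27-fold, 3.15-fold and 2.65-fold. Of the monocyte genes, Ly6c2, a marker of inflammatory monocytes, had ratios of 0.0605, 0.146 and 0.0918, while Ccr2, the receptor that draws monocytes from the blood, had ratios of 0.779 (0.402 to 1.36), 2.42 (1.79 to 3.22) and 0.709 (0.521 to 0.943) and was thus higher in the Lyve1-bearing cells of old PBS. The MHC class II gene H2-Aa had ratios of 0.0964 (0.0589 to 0.149), 0.446 (0.385 to 0.514) and 0.0950 (0.0742 to 0.120), and Gpnmb, a gene of lipid-laden macrophages, 0.157, 0.0771 and 0.0549. Old PBS stood apart in MHC class II. Its Lyve1-bearing cells held H2-Aa at 1500 CPM, against 263 CPM in young PBS and 218 CPM in old rMETRNL, and Cd74, the invariant chain, at 3727 CPM against 605 and 641 CPM.

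Across all macrophages, the companion list of 20 genes had 6 genes higher and 0 lower by over 1.5-fold with treatment, against 5.75% and 3.92% of all genes, with a median log2 ratio of 0.30 and 8 of the 20 below 1. The 6 were Marco, Cd209d, Cd209f, Cd209g, Cd163 and Siglec1. Cd163 was at 14.002, 17.2 and 28.6 CPM, with a treatment ratio of 1.66 (1.57 to 1.76), and Siglec1, a sialic acid receptor, at 55.6, 30.4 and 46.6 CPM, with a ratio of 1.53 (1.47 to 1.604). Marco, a scavenger receptor, had 96, 12 and 61 UMIs. Vsig4, a complement receptor, was instead at 3.85, 4.53 and 3.17 CPM, with a treatment ratio of 0.699 (0.606 to 0.805). With age the companions had 1 gene higher (Mgl2, 2.48) and 2 lower (Siglec1, 0.547, and Marco, 0.125) by over 1.5-fold, shares near the 6.81% and 6.69% of all genes.

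Other macrophage gene lists were read in the same libraries, and their counts stand against the shares of all genes just given. Of 7 monocyte genes, 5 were higher and 0 lower by over 1.5-fold with treatment (5.75% and 3.92% of all genes), with a median log2 ratio of 0.88, led by Plac8 at 228, 86.6 and 225 CPM and Ly6c2 at 273, 115 and 221 CPM. With age, 3 of the 7 were lower (6.69% of all genes). Of 4 MHC class II genes 3 were lower with treatment, with a median log2 ratio of -0.60 and H2-Aa at 2063, 2620 and 1645 CPM. Of 6 lipid-associated genes 0 were higher or lower by over 1.5-fold with treatment (median log2 ratio -0.11), and 2, Gpnmb and Lpl, were higher with age (6.81% of all genes). The part of these lists in the levels of the 9 genes was not tested.

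**Figure D5:**
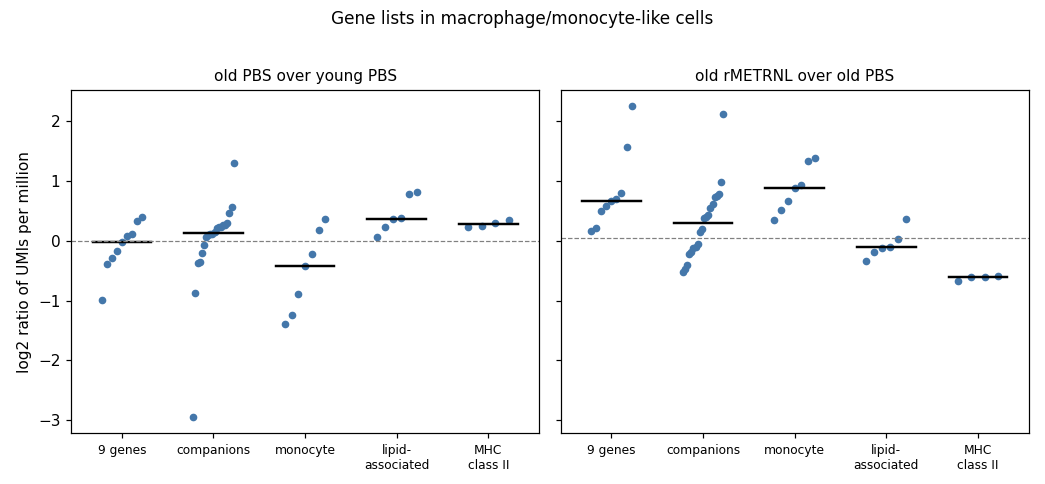
Log2 ratio of CPM in macrophage/monocyte-like cells for each gene of 5 lists (points), with the list median (bar) and the median of all 14344 genes (dashed line), for age at left and treatment at right. With treatment the list medians are 0.67 for the 9 genes, 0.30 for their companions, 0.88 for monocyte genes, -0.11 for lipid-associated genes and -0.60 for MHC class II genes.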

How the data were processed

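Droplet-based libraries of injured muscle, 1 per group, were examined. The deposited files held raw UMI counts for every gene in each barcode, produced by the authors with Cell Ranger on mm10. The file headers name version 5.0.0, the submitters' processing notes also 3.1.0 and the study's methods another, which was not settled here. Cells needed 500 genes and a mitochondrial share below 10%. Scrublet in scanpy 1.11.5 called 0 doublets at its automatic threshold, so the highest scores were removed at 0.8% per 1000 barcodes (9.26% to 10.6% of scored cells). Counts were log-normalised and clustered by Leiden (2000 variable genes, 30 components, 20 neighbours, resolution 0.8) without integration and without the 9 genes. The companions were left out only for the macrophage sub-clusters. Clusters took names from marker lists when at least 3 markers were detected, and a cluster of 473 cycling cells stayed unnamed because a cluster led by no marker needed 75% of its list. This naming rule was set after the cluster tables had been seen. Macrophage sub-clusters named for myocytes or neutrophils (273 cells) were moved to the unnamed cells, 746 in all, and so left out of every macrophage result. The members and gene lists were chosen with earlier results of these data known.

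UMIs were summed per class and library and scaled to CPM. Levels had exact Poisson, shares exact Clopper-Pearson and ratios exact conditional binomial 95% intervals. List summaries used genes with at least 50 UMIs, with 0.5 added to each count, and a call meant a ratio over 1.5-fold. Shares used the expected outcome of thinning each cell to 2000 UMIs. The genes named were the members, the fixed lists, the 5 genes most correlated with Lyve1 among those with at least 500 UMIs, and the leading genes of sub-clusters. Scripts were tested on simulated data. Promoter windows came from RefSeq (GRCm38.p6), and their overlap with exons from GENCODE.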

Additional observations from a re-analysis of the deposited data

How the results depend on the processing

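No paired analysis was possible because each group had 1 library, so that the shared number 1 in the sample names joins no replicates, and no library could be left out. With the stricter cell filter, the Lyve1 ratio in macrophages was 7.57 for treatment and 0.773 for age. With the mean of per-cell CPM these were 3.01 and 1.62, and the age ratio of Cbr2 was 1.0004 rather than below 1. An alternative chosen after seeing the data, without the 4 sub-clusters highest in Lyve1, gave Lyve1 ratios of 6.47 for treatment and 1.97 for age, and turned the treatment ratios of Fcna (0.816) and Ednrb (0.918) and the age ratio of F13a1 (0.919) to below 1. The stricter filter also turned the age ratio of F13a1 to 0.933. In the sub-cluster with the highest Lyve1 level, the treatment ratio was 1.94 when the members and companions entered the clustering, and the age ratio was 0.930 with the stricter filter and 0.885 at resolution 1.6. The cause of these shifts was not tested. The median treatment log2 ratio of the 9 genes ranged from 0.49 to 0.73 over 12 alternatives, and the treatment ratio of thinned Lyve1 shares from 2.52 to 3.46 over 9, where the age ratio of these shares ranged from 1.24 to 1.88. Timd4 rested on few UMIs in macrophages, 24 to 82 by library, and these lay in 16 to 32 cells.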
